A study of Homo sapiens with 11 samples.

Results

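Ribosome footprints of 2 knockouts of the same enzyme were compared directly, with 2 libraries on each side: 4 of the 11 libraries of the series. The footprint libraries were chosen by their labels alone, and the 4 RNA libraries of the same knockouts were set beside them. All libraries came from HEK293T, an established line derived from human embryonic kidney. The labels give the genotypes as CSAM-KO#1 and CSAM-KO#2, here knockout 1 and knockout 2, and the gene's current symbol is PCIF1. No treatment or time point is given, and the labels do not say whether a knockout is a single clone or whether its libraries came from separate cultures. The p-values therefore measure only the spread between these libraries, which may be technical. Wild-type cells gave 1 footprint library and 2 RNA libraries. Their levels are shown here to place the knockouts, but they were also part of the fits, where the RNA libraries share the estimate of spread.

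PCIF1 is the enzyme that N6-methylates a cap-adjacent adenosine in messenger RNAs that begin with one. In ribosome profiling, RNase I digests the RNA that ribosomes do not cover, and the protected fragments are sequenced. The footprint count of a transcript depends on how much of its RNA there is and on how many ribosomes each copy carries, so the same RNA difference can be followed, damped (buffered) or amplified in footprints. Translational efficiency is the name for the footprint level relative to the RNA level.

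The files give transcripts by UCSC-style identifiers and a listed length without a unit, and with no gene names. The tables at hand did not pair these identifiers with symbols, so neither the targeted gene nor markers of the cell line could be looked up. Rows with identical counts in all 11 libraries were merged, and each merged row is called a feature. Features of 1 gene overlap, so counts of features exceed counts of genes. They are therefore also given as blocks of 20 consecutive lines of the table. Knockout footprint totals after merging were 10519094 and 8387752 counts for knockout 1 and 17437453 and 9122052 for knockout 2, against 40346318 to 49580593 for the RNA of the same knockouts. The median standard error (SE) of a log2 difference was 0.22 in footprints and 0.17 in RNA.

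Footprints differed between the knockouts for 3696 of 44410 features tested, which is 8.32% (edgeR quasi-likelihood test, Benjamini-Hochberg adjusted p under 0.05). Of these, 2018 features in 855 blocks were higher in knockout 1 and 1678 features in 765 blocks were lower, out of 7806 blocks tested. More than 2-fold differences were more frequent on the side of knockout 1, with 578 features higher and 253 lower. The median size of a called difference was 0.63 on the log2 scale. The count was 1565 without replicate 1 of knockout 1, 1618 and 2196 without replicates 1 and 2 of knockout 2, and 746 by DESeq2 (461 higher, 285 lower). No alternative turned the balance, and features higher in knockout 1 were the more numerous in each.

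The identifiers named below are the 2 higher and the 2 lower features with the largest called footprint difference among those with a mean of at least 50 counts. The footprints of uc004fdw.3 (listed length 309) stood at 14.1 and 17.2 CPM (counts scaled to library size with TMM factors) in knockout 1 and at 0.40 and 0.97 CPM in knockout 2. The knockouts did not overlap, and the wild-type library was at 0.84 CPM, on the side of knockout 2. On the log2 scale they differed by 4.67 ± 0.28 (SE; edgeR adjusted p = 3.8e-25). In RNA, uc004fdw.3 was at 10.6 and 11.6 CPM in knockout 1 and had 1 and 0 counts in the libraries of knockout 2. Against the 3 counts over both libraries that serve as a floor, its RNA was at least 336-fold higher in knockout 1, while its mean footprint level was 22.9-fold higher. The remaining footprint level in knockout 2 rests on 7 and 9 counts.

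The next higher feature, uc004ajf.2 (listed length 337), had footprints of 11.2 and 12.6 CPM in knockout 1 and 0.80 and 1.07 CPM in knockout 2. Its RNA levels were 9.89 and 8.93 CPM against 0.32 and 0.39 CPM. The footprint difference of uc004ajf.2 was 3.70 ± 0.27 (SE, log2; edgeR adjusted p = 3.06e-20), beside an RNA difference of 4.73 ± 0.27 (edgeR adjusted p = 1.67e-11). Both assays were high in the libraries of knockout 1 and low in those of knockout 2, and wild type lay between them, at 3.97 CPM in footprints. The difference of the differences did not pass (-1.02 ± 0.50 SE, edgeR adjusted p = 0.44).

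In the other direction, uc004euj.4 (listed length 2716) had footprints of 0.84 and 1.89 CPM in knockout 1 and 15.5 and 12 CPM in knockout 2. Its RNA levels were 8.42 and 7.90 CPM against 67.3 and 61.3 CPM. The log2 differences of uc004euj.4 were -3.42 ± 0.26 (SE) in footprints, with an edgeR adjusted p of 5.88e-19, and -2.98 ± 0.11 in RNA, with 3.97e-16. Its wild-type levels lay between the knockouts in both assays, at 3.25 CPM in footprints and at 32.6 and 25 CPM in RNA. The footprints of uc002jyp.2 (listed length 423) were 2.42 and 2.71 CPM in knockout 1 and 9.29 and 10.3 CPM in knockout 2. Its RNA levels were 1.42 and 1.85 CPM against 6.54 and 6.44 CPM. The log2 difference of uc002jyp.2 was -1.92 ± 0.23 (SE) in footprints (edgeR adjusted p = 2.07e-10) and -1.97 ± 0.19 in RNA, and that of efficiency was 0.04 ± 0.31 (edgeR adjusted p = 0.98). Wild type was close to knockout 1 for this feature in both assays, at 2.17 CPM in footprints.

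**Figure D1:**
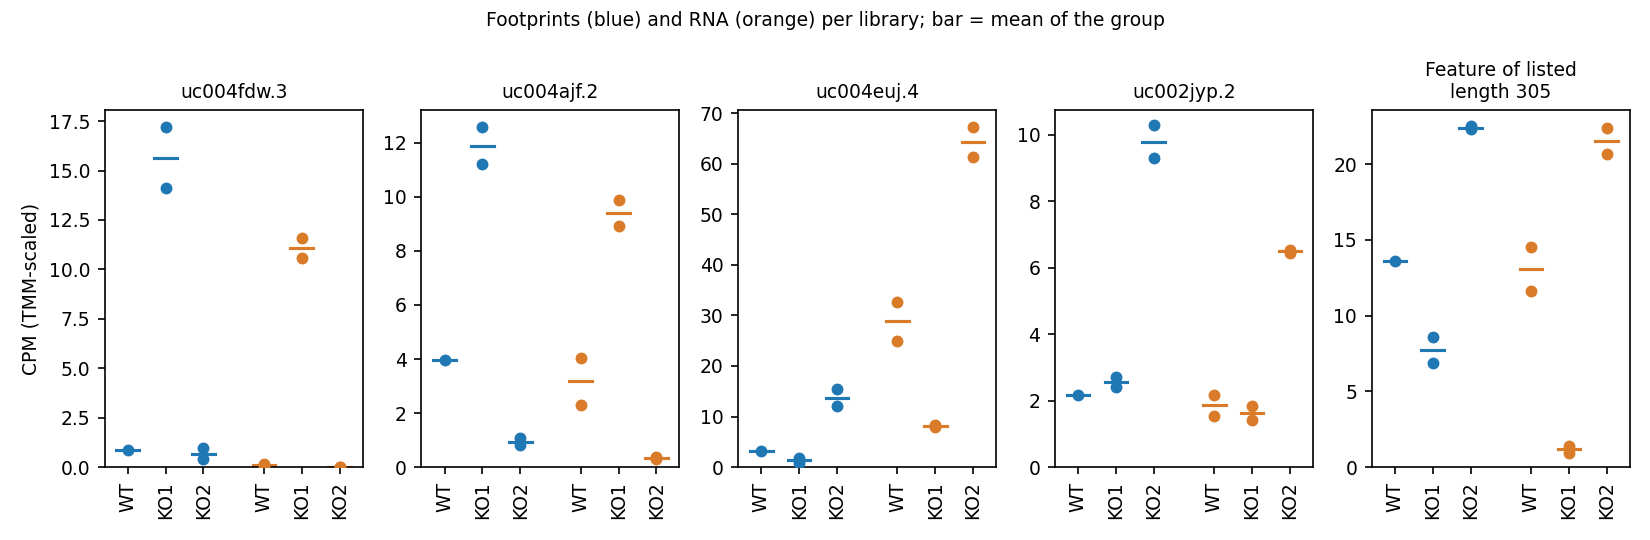
Level in CPM (vertical axis, from 0, TMM-scaled) of the 4 named features and of 1 feature of listed length 305, in each library of footprints (blue) and RNA (orange). WT is wild type, KO1 and KO2 are the knockouts, points are libraries and bars are group means. For uc002jyp.2 the group means differ by a similar fold, 3.82 in footprints and 3.97 in RNA, while for the feature of listed length 305 the RNA mean goes from 1.17 to 21.6 CPM and the footprint mean from 7.70 to 22.4 CPM.

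The second question was whether footprint differences came with differences in RNA. In RNA, 3772 of 57719 features differed between the knockouts (6.54%, edgeR adjusted p under 0.05), 2035 higher and 1737 lower in knockout 1. Leaving out 1 RNA library brought this count to 1584 or 1352 (knockout 1, replicate 1 or 2) and to 2438 or 1928 (knockout 2). The balance turned to 1587 higher and 1613 lower without lines 85001 to 87000 of the table, described below. Among 44089 features tested in both assays and for efficiency, 3674 were called in footprints and 3240 in RNA. Both were called in the same direction for 1167 features, 31.8% of the footprint list and 36.0% of the RNA list, and in opposite directions for 16. Direction was shared more widely than the call. Of the features called in RNA, 2856 (88.1%) had a footprint difference of the same sign, against 61.8% of all features tested. Taking from each 20 lines the feature with most counts, the shares were 87.9% of 745 and 64.1% of 7791.

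**Figure D2:**
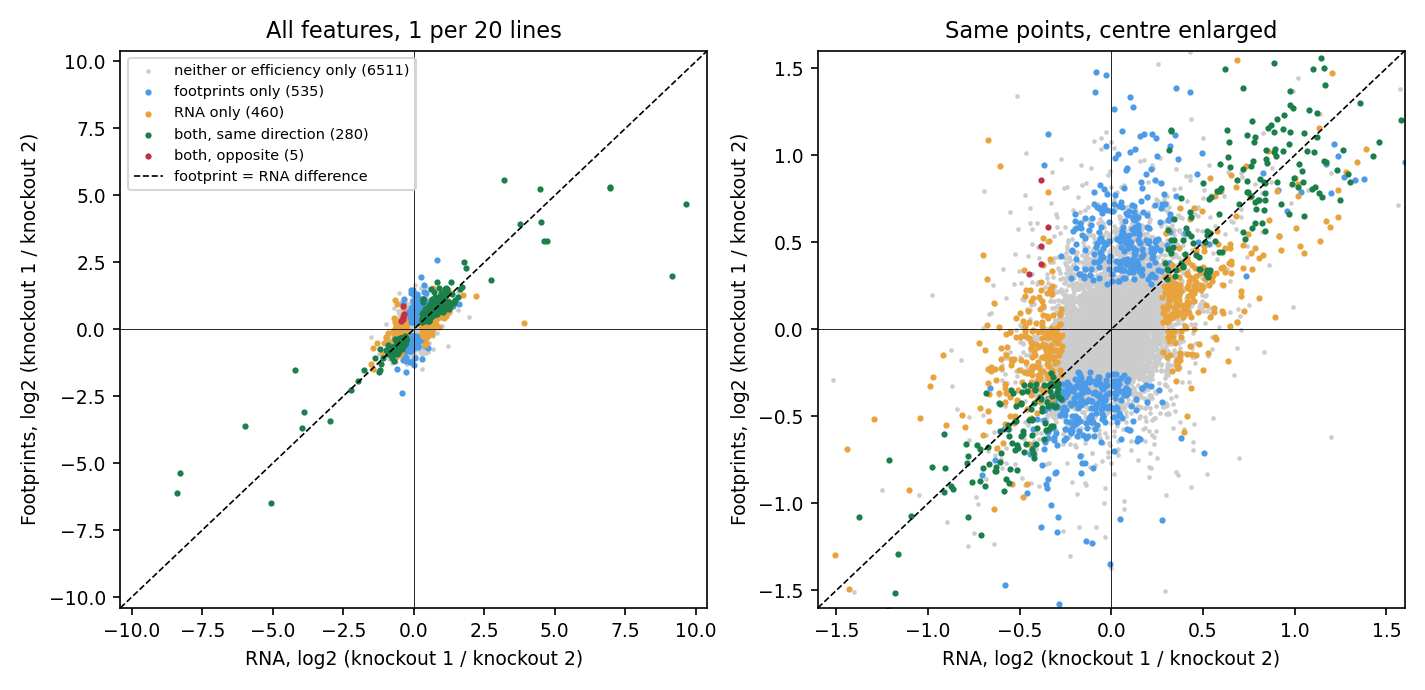
Footprint difference (vertical axis) against RNA difference (horizontal axis) between the knockouts, log2 of knockout 1 over knockout 2, for 7791 features, 1 per 20 lines, with the centre enlarged on the right. Colours mark the calls in each assay and the dashed line marks equal differences. Of the 280 features called in both assays with 1 direction, 275 had no call in translational efficiency. Efficiency was called against RNA in 3 of them, which lie off the line, and with RNA in 2. Another 5 features were called in opposite directions.

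Features were then sorted by 3 calls: footprints, RNA and translational efficiency, the last being the interaction of assay and knockout in 1 edgeR model. In 1147 features (450 blocks) footprints followed RNA: both were called in 1 direction and efficiency was not. Their median difference along the direction of the call was 0.75 in RNA and 0.83 in footprints, on the log2 scale. RNA alone was called in 2057 features. In 2018 of them efficiency was not called, and the median footprint difference along the RNA call was 0.23, beside 0.47 in RNA. Footprints alone were called in 2491 features. In 2347 of these efficiency was not called either, with medians of 0.56 in footprints and 0.13 in RNA along the footprint call. The assays shared a direction in 83.6% of these 2018 and 75.8% of these 2347 features, which were selected for no efficiency call. Where efficiency was called they did so in 2 of 39 features with RNA alone (5.13%) and 19 of 144 with footprints alone (13.2%). Among features with no call the share was 58.9%. An efficiency call requires the 2 differences to diverge, so these low shares follow largely from that selection. A missed call does not show that an assay was unchanged.

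Over all features the footprint difference rose with the RNA difference by less than 1 for 1. The slope was 0.82 over 44089 features, after the estimation error of the RNA difference was subtracted from its variance. It was 0.77 over 7791 features, 1 per 20 lines, and 0.75 to 0.88 when each knockout library was left out in turn. Without that subtraction the slopes were 0.62 and 0.67, since error in the RNA difference flattens them. The correlation of the differences was r = 0.53 over all features and 0.66 over 1 per 20 lines. These are descriptions across features of the same libraries, which are not independent replicates. By listed length the slope was 0.81 for over 100 to 200, 0.77 for over 200 to 400, 0.77 for over 400 to 800 and 0.88 for over 800. In the class up to 100 it was 1.26, over 244 features in which the RNA difference varied little beyond its error (SD 0.24, error 0.17).

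Features with large RNA differences are given as a description. They were chosen by their RNA difference, so error in RNA alone lowers the ratio of footprints to RNA. Taking 1 feature per 20 lines, 88 features had a called RNA difference of more than 2-fold, 65 higher and 23 lower in knockout 1. All 88 had a footprint difference of the same sign, 63 were also called in footprints, and in 66 the footprint difference was the smaller. The median ratio of the log2 differences, footprints over RNA, was 0.80 (quartiles 0.66 and 0.99). In the 37 of these with at least 50 footprint counts in each knockout, the ratio was 0.81 (quartiles 0.69 and 0.93) and 31 had the smaller difference in footprints. Only 3 of the 88 were called in translational efficiency, each against the RNA direction.

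Translational efficiency itself differed for 222 of 44089 features (0.504%, edgeR adjusted p under 0.05), 196 higher in knockout 1 in 96 blocks (0.445%) and 26 lower in 19 blocks (0.059%). This count depended on single libraries. Among footprint libraries, dropping replicate 1 of knockout 1 left 9 calls, and dropping replicate 1 or 2 of knockout 2 left 76 or 50. Among RNA libraries, dropping replicate 1 or 2 of knockout 1 left 44 or 48, and dropping replicate 2 of knockout 2 left 104. It was 107 by limma-voom and 147 by DESeq2. In every one of these settings the larger part was higher in knockout 1. The 196 higher features had a median listed length of 154.5 and a longest of 433, and the 26 lower features had a median of 1260.5, against 262 over all features tested.

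Features called in efficiency were more often also called in footprints than in RNA. They were chosen by their footprint difference minus their RNA difference, so the values below partly restate that choice and are a description. Of the 196 higher features, 162 were called in footprints and 65 in RNA, and their median differences were 0.61 in footprints and -0.18 in RNA. Relative to the mean of the 4 knockout libraries, their median footprint level was 0.37 and 0.23 in knockout 1 and -0.27 and -0.30 in knockout 2, on the log2 scale. Replicate 1 of knockout 1 thus lay further out than replicate 2. The wild-type footprint library stood at 0.52, above all 4. In RNA the same features stood at -0.09 and -0.07 in knockout 1, 0.07 and 0.10 in knockout 2 and -0.22 and -0.12 in wild type. Of the 26 lower features, 18 were called in footprints, and the medians were -0.58 in footprints and 0.36 in RNA.

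Efficiency was called against a called RNA difference in several kinds of feature, among them the 16 with opposite calls described below. Both assays were called in 1 direction with efficiency against it in 9 features, which lay in 3 runs of neighbouring lines. One run held 7 of them. Its most significant feature, of listed length 305, had RNA levels of 1.39 and 0.96 CPM in knockout 1 and 20.7 and 22.4 CPM in knockout 2. Its footprints were 8.56 and 6.85 CPM against 22.3 and 22.5 CPM. RNA differed by -4.22 ± 0.16 (SE, log2) and footprints by -1.52 ± 0.15, so efficiency differed by 2.69 ± 0.25, with an edgeR adjusted p of 2.06e-08. Wild type was intermediate, at 13.6 CPM in footprints and at 11.6 and 14.5 CPM in RNA. Across the run, footprint differences ran from -2.07 to -1.25 and RNA differences from -4.31 to -3.93, and whether these neighbouring features count the same reads was not tested. The other buffered features were uc004fdw.3, described above, and a feature of listed length 531.

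A further 39 features were called in RNA and in efficiency against it, with no call in footprints. In 32 of them RNA was lower in knockout 1. The one with the smallest efficiency p had a listed length of 98 and RNA levels of 638 and 670 CPM in knockout 1 and 838 and 926 CPM in knockout 2. Its footprints did not follow, at 155 and 158 CPM against 143 and 123 CPM. The RNA difference was -0.43 ± 0.08 (SE, log2), the footprint difference 0.23 ± 0.09 (edgeR adjusted p = 0.105) and the efficiency difference 0.65 ± 0.13 (edgeR adjusted p = 0.0088). That last call was lost without footprint replicate 1 of knockout 1 or 2 of knockout 2, and without RNA replicate 1 or 2 of knockout 1 or 2 of knockout 2.

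Footprints added to an RNA difference in 11 features, all higher in knockout 1. Of these, 10 were neighbouring lines with listed lengths of 120 to 197, whose RNA differences ran from 0.62 to 0.65 and footprint differences from 1.33 to 1.49, on the log2 scale. The remaining one, of listed length 289, had footprints of 178 and 167 CPM in knockout 1 and 88.7 and 79.8 CPM in knockout 2. Its RNA was at 49.1 and 47.2 CPM against 40.2 and 37.1 CPM. Efficiency differed by 0.71 ± 0.13 (SE, log2; edgeR adjusted p = 0.0045), and this call was lost without footprint replicate 1 of knockout 1, footprint replicate 2 of knockout 2 or RNA replicate 2 of knockout 1. Leaving out 1 library gave from 0 to 14 added features.

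The 16 features called in opposite directions included 15 with higher footprints and lower RNA in knockout 1, and 10 of these were neighbouring lines. The one with the smallest efficiency p had a listed length of 136 and was abundant. Its footprints stood at 334 and 279 CPM in knockout 1 and at 216 and 207 CPM in knockout 2. Its RNA stood at 789 and 855 CPM in knockout 1 and at 1030 and 1090 CPM in knockout 2. The knockouts did not overlap in either assay. The log2 differences were 0.54 ± 0.09 (SE) in footprints and -0.37 ± 0.08 in RNA, and that of efficiency was 0.90 ± 0.13 with an edgeR adjusted p of 1.87e-04. Wild type lay on the side of knockout 1, at 436 CPM in footprints and at 871 and 897 CPM in RNA. Leaving out 1 library gave from 0 to 23 opposite features.

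Footprints alone, with efficiency called, made up 144 features, 129 of them higher in knockout 1. The one with the smallest efficiency p had a listed length of 146, with footprints of 23.5 and 21.0 CPM in knockout 1 and 11.2 and 11.7 CPM in knockout 2. Its RNA was at 10.6 and 8.56 CPM against 13.2 and 10.9 CPM, which did not pass (edgeR adjusted p = 0.12). Efficiency differed by 1.29 ± 0.19 (SE, log2), with an edgeR adjusted p of 2.95e-04. Among the 15 lower features, one of listed length 89 had footprints of 24.9 and 26.9 CPM against 37.7 and 42.3 CPM. Its RNA was 13.1 and 12.1 CPM against 11.2 and 9.43 CPM, and efficiency differed by -0.91 ± 0.16 (SE, log2; edgeR adjusted p = 0.0036). Without footprint replicate 1 or RNA replicate 1 of knockout 1 that call was lost.

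Sorted by listed length, footprints and RNA leaned in opposite directions in the 4 classes over 100, and in the same direction in the class up to 100. In that class footprints were higher in knockout 1 for 3.29% of 6111 features and lower for 4.57% (median log2 difference -0.021), and RNA was higher for 1.25% of 10922 and lower for 1.57% (median -0.018). In the class over 100 to 200, 751 of 11812 features had higher footprints in knockout 1 (6.36%) and 334 lower (2.83%), beside 4.54% and 3.78% over all features tested. In RNA the same class had 359 higher and 468 lower of 15584. In the class over 800, footprints were higher for 148 of 5822 features (2.54%) and lower for 279 (4.79%), while RNA was higher for 530 of 6732 (7.87%) and lower for 161 (2.39%). Over all lengths the RNA shares were 3.53% higher and 3.01% lower. Efficiency, higher for 0.445% and lower for 0.059% of all features tested, was higher for 93 of 11764 (0.791%) and lower for 3 in the class over 100 to 200. It was higher for 58 of 10661 (0.544%) and lower for 3 in the class over 200 to 400. In the class up to 100 it was higher for 43 of 5898 (0.729%) and lower for 1, but there its median was 0.017 over all features and -0.052 over 1 per 20 lines. With 1 feature per 20 lines the counts were 2 higher and 0 lower up to 100, 19 and 0 over 100 to 200, and 22 and 1 over 200 to 400. In the class over 800, 15 of 5819 were lower and 0 higher by edgeR, with 573 lower and 20 higher at an unadjusted p under 0.05. DESeq2 called 4 lower and 0 higher there, and limma-voom 2 lower and 0 higher.

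The medians behind these counts were small. In the class over 800 the median log2 difference was -0.065 in footprints, 0.082 in RNA and -0.13 in efficiency, and in the class over 100 to 200 it was 0.053, -0.020 and 0.093. Over all features tested the median was 0.0004 in footprints, 0.0025 in RNA and 0.0065 in efficiency. Per library, relative to the mean of the 4 knockout libraries, the class over 800 stood in footprints at -0.031 and -0.013 in knockout 1 and at 0.029 and 0.026 in knockout 2. In RNA it stood at 0.026 and 0.044 in knockout 1 and at -0.031 and -0.027 in knockout 2. Wild type lay beyond knockout 1 in both assays, at -0.094 in footprints and at 0.12 and 0.077 in RNA. The knockouts did not overlap in either assay, and the order was reversed between assays. With 2 libraries against 2, an exact permutation test of such a value has 6 splits and cannot give a two-sided p under 0.333. In the class up to 100 the footprint libraries of knockout 2 lay at 0.054 and -0.002 and those of knockout 1 at -0.049 and -0.016, so the spread within a knockout was close to the distance between them.

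**Figure D3:**
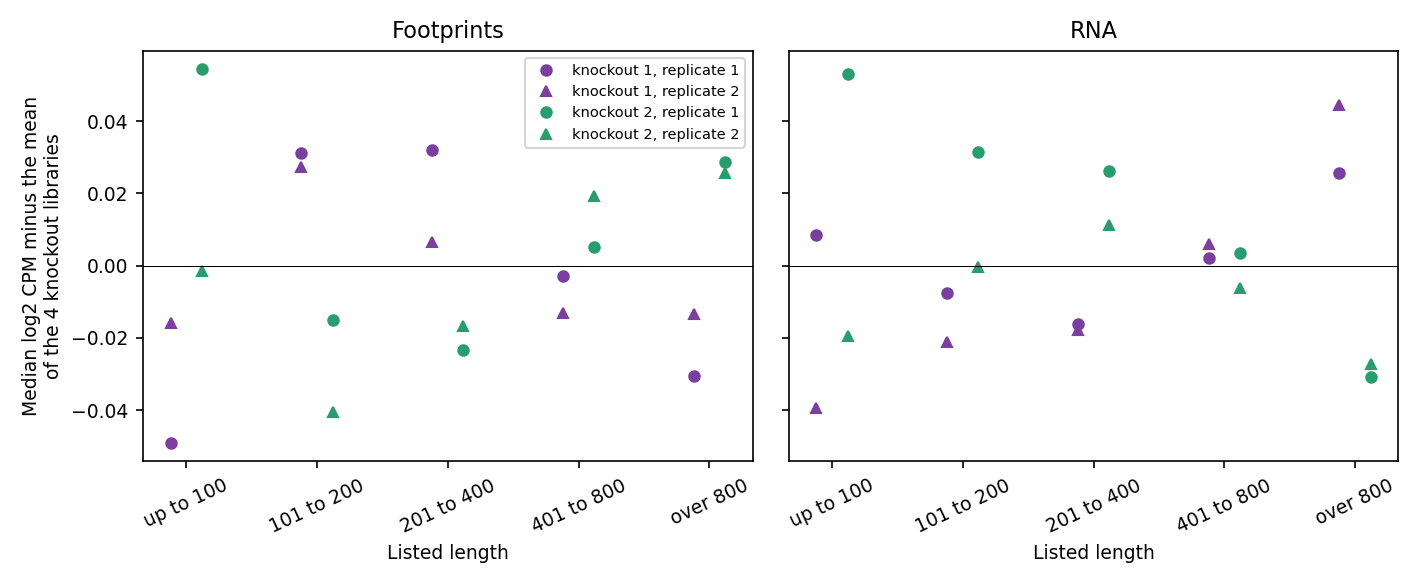
Median log2 CPM of each knockout library minus the mean of the 4 knockout libraries of its assay (vertical axis), by class of listed length (horizontal axis), over 1 feature per 20 lines. In the class over 800 both libraries of knockout 1 lie below those of knockout 2 in footprints and above them in RNA.

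Position in the table gave a second grouping that the rule of choice did not use. Lines were cut into stretches of 1000, and 182 stretches held at least 20 features, taking 1 per 20 lines. In 2 adjoining stretches, lines 85001 to 87000, the median differences were 0.88 and 0.74 in footprints and 0.78 and 0.79 in RNA, on the log2 scale. These stretches were singled out by their high median RNA difference, so their RNA values partly restate that choice. Elsewhere the medians ran from -0.22 to 0.16 in footprints and from -0.20 to 0.23 in RNA. Within these lines, 283 of 500 features were called in footprints and all were higher in knockout 1, beside 4.54% of all features tested. They make 14.1% of the features with that call among the 44089 tested in both assays. In RNA 358 were higher and 1 lower, beside 3.53% and 3.01% of all features tested in RNA. Efficiency was called in 2 (1 higher, 1 lower, median 0.02), beside 0.445% higher and 0.059% lower over all features tested. The median efficiency difference was 0.098 in the first of these stretches and -0.14 in the second. Of the 21 features there with a called RNA difference of more than 2-fold (1 per 20 lines), 16 had the smaller difference in footprints, with a median ratio of 0.87. Without these lines the footprint count was 3239 (1688 higher, 1551 lower).

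The libraries of each genotype lay close together in this stretch. Relative to the mean of the knockout libraries, the median footprint level was 0.35 in both libraries of knockout 1 and -0.35 in both of knockout 2, and the wild-type library stood at 0.35. In RNA the values were 0.36 and 0.35 in knockout 1, -0.33 and -0.34 in knockout 2, and 0.30 and 0.32 in wild type. Knockout 2 was therefore the one that stood apart from both other genotypes. The slope of footprint on RNA differences over all features was 0.81 without this stretch and 0.82 with it. Across the other 180 stretches the medians of the assays correlated with r = 0.53, against 0.82 over all 182. Examples are lines 58001 to 59000, at -0.22 in footprints and -0.20 in RNA, and lines 172001 to 173000, at 0.14 and 0.23.

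**Figure D4:**
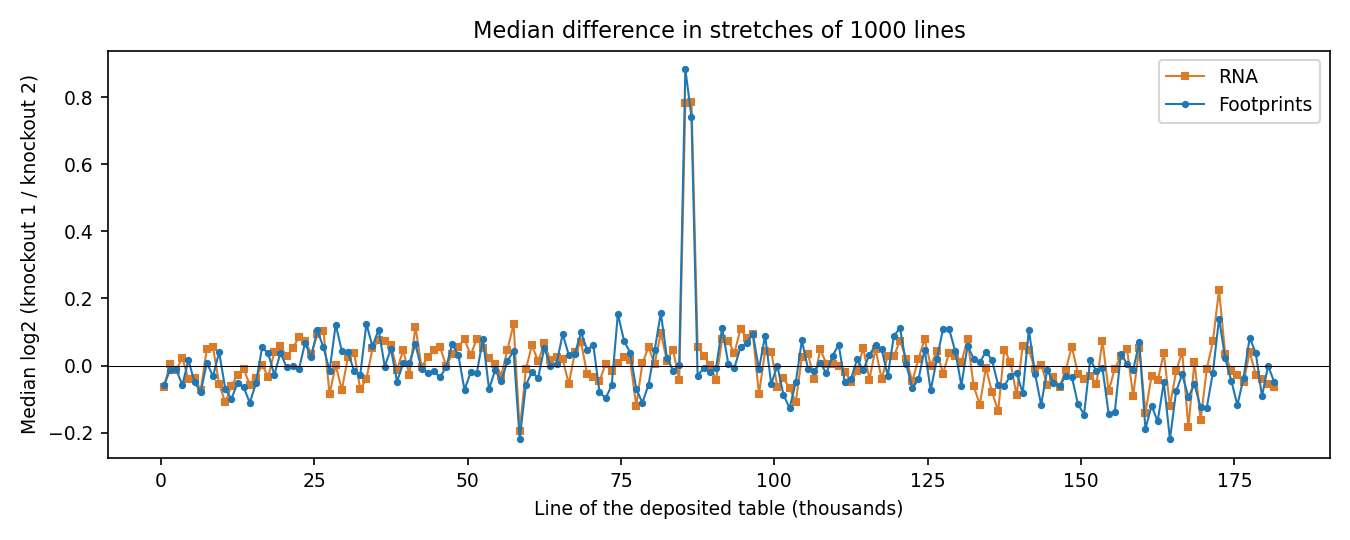
Median log2 difference of knockout 1 over knockout 2 (vertical axis) in stretches of 1000 lines of the deposited table (horizontal axis, line number / 1000), 1 feature per 20 lines, for footprints (circles) and RNA (squares). Both assays peak together at lines 85001 to 87000, with medians of 0.74 to 0.88, while other stretches stay between -0.22 and 0.23.

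Some features had footprints in 1 knockout and nearly none in the other. All 66016 merged features were searched for this. Features with a mean of at least 1 CPM in knockout 1 and a sum of 3 counts or fewer in knockout 2 numbered 28 in 13 blocks. In the reverse case they numbered 24 in 11 blocks. The highest of these levels were 4.86 CPM in knockout 1 and 4.47 CPM in knockout 2, so none was abundant. RNA too summed to 3 counts or fewer in the knockout lacking footprints in 11 of the 28 and 13 of the 24. It met the same rule in full, with at least 1 CPM in the other knockout, in 5 of the 28 and 6 of the 24. In RNA itself 17 of the 66016 features met it in knockout 1 and 7 in knockout 2, with levels of up to 11.1 and 15.2 CPM. Among the footprint features absent from knockout 2, 15 of 28 were at 1 CPM or more in the wild-type library, and among those absent from knockout 1, 11 of 24 were. That library had 3 counts or fewer for 3 of the 28 and for 9 of the 24. The floor of 3 counts corresponds to 0.113 CPM in knockout 2 and 0.159 CPM in knockout 1, and covers counting error only.

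Set beside wild type, knockout 2 was more often the one further away. Of the 3696 features called in footprints, the wild-type level lay nearer to knockout 1 in 2616 (70.8%) and nearer to knockout 2 in 1080 (29.2%). Of the 3772 called in RNA, it lay nearer to knockout 1 in 2603 (69.0%). Wild type lay between the knockouts for 47.4% of the footprint features and 67.2% of the RNA features. It lay outside them on the side of knockout 1 for 1559 footprint features and on the side of knockout 2 for 386. With 1 called feature per 20 lines the shares nearer to knockout 1 were 69.1% in footprints and 67.4% in RNA. The single wild-type footprint library has no replicate, so these are counts and no test was made.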

How the data were processed

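The authors deposited whole-number counts per transcript, not normalised, in 1 file per library with 182398 rows in the same order. The authors' listed length beside each count carries no unit, and 88482 rows have none. Bowtie2 2.1.0, TopHat2 2.0.9, CASAVA 1.8 and the build hg38 are listed, without role or order, per the submitters' processing notes. The counter, its strand setting and its handling of shared reads are not given in the sources used here, so overlapping, antisense and paralogous transcripts cannot be told apart. Footprints were made with RNase I and ribosome pelleting, and RNA libraries with TruSeq, per the labels' protocols.

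Rows with identical counts in all 11 libraries (82937 with any count) were merged to 66016 features. Differences were tested with edgeR 4.0.16 in R 4.3.3 (glmQLFTest, robust, two-sided, positive when higher in knockout 1), with TMM factors within each assay and at least 10 counts in at least 2 libraries. The wild-type libraries were in the fit. With knockout libraries only, RNA gave 5254 calls in place of 3772, and efficiency 415 in place of 222. Efficiency was the interaction over all 11 libraries. The SE is the log2 difference over the square root of F. Alternatives used DESeq2 1.42.0, limma 3.58.1, other scaling, filters and merging, a replicate block, thinned counts and each knockout library left out in turn. The fits and the slope were also run on simulated counts with independent features and 1 spread for both assays. That setting leaves out overlapping transcripts, so it does not give the error rate in these data.

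Across all features, replicate differences of the 2 knockouts were hardly correlated (r = -0.009 in footprints, 0.067 in RNA). A replicate block nevertheless raised the RNA calls among knockout libraries from 5254 to 6893, and whether same-numbered libraries share an effect was not tested. Replicates differed by more than counting noise (chi-square per feature 1.81 to 5.28). Members, lists and rules were chosen with earlier results of these data known. Identifiers are printed for the 2 higher and 2 lower features with the largest called footprint difference (mean of at least 50 counts, no overlap, over 3 counts in each knockout, at least 200 lines apart). Others are described by listed length, as the first by adjusted p in each class with a mean of at least 50 counts, a limit chosen after the data were seen.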

Additional observations from a re-analysis of the deposited data

Results flagged for a closer look

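In 3 features the knockout difference itself differed between footprints and RNA by the interaction test and by a wide margin. For the feature of listed length 136 the directions were opposite (efficiency difference 0.90, log2), and efficiency was called in all 18 alternatives run. For the feature of listed length 305 the RNA difference was the larger (efficiency difference 2.69), also called in all 18. For uc004fdw.3 the fitted efficiency difference was -4.83, called in 11 of the 13 alternatives that gave a value (DESeq2 and leaving out any 1 library of knockout 1 gave none), lost without footprint replicate 2 or RNA replicate 2 of knockout 2, and dependent on RNA libraries of knockout 2 with 1 and 0 counts, so its size is not a bound.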

How the results depend on the processing

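Across 20 results and 198 recomputed values, 115 kept within 1.5 times the count or, for other values, within a set spread. Another 83 moved and 0 were labelled as reversed. Counts were compared by size alone, so that label says nothing about their balance of higher and lower features. The balance of RNA calls did turn without the raised stretch, from 2035 higher and 1737 lower to 1587 and 1613. That count was labelled as kept. For all length medians, also those of efficiency, the set spread was the SD of footprint libraries within a knockout. For the slope and the stretches it was the SD of the values with 1 library left out. Leaving out 1 knockout library at a time gave 1565 to 4295 footprint calls, 1352 to 2438 in RNA and 9 to 278 in efficiency. It gave 678 to 1014 features that follow, 0 to 14 that add, 4 to 8 that buffer, 0 to 23 opposite, 399 to 2439 in RNA only and 790 to 3219 in footprints only. The footprint median ran from 0.0384 to 0.0743 in the class over 100 to 200 and from -0.0884 to -0.0492 in that over 800, and the efficiency median from 0.0814 to 0.113 and from -0.147 to -0.115. The slope ran from 0.748 to 0.882, the correlation of stretch medians from 0.756 to 0.831 (reported value 0.822), and the footprint median of the raised stretch from 0.787 to 0.819 (reported value 0.837). Where 1 library is left, it is assumed to vary like the others.

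With 1 feature per 20 lines, which tests fewer features, the counts were 834 in footprints, 964 in RNA and 62 in efficiency, 275 follow, 2 add, 3 buffer, 5 opposite, 460 RNA only and 535 footprints only, with a slope of 0.767 and an efficiency median over 800 of -0.121. With knockout libraries only, efficiency gave 415 calls, 17 features added and 3182 were RNA only. With a mean count of at least 50, 5 buffered and 1298 were RNA only. DESeq2 called 746 in footprints and 147 in efficiency, and limma-voom 107 in efficiency. The replicate block, run on knockout libraries only, gave 3747 footprint calls, 6893 in RNA and 906 in efficiency (654 higher, 252 lower, 72.2% higher). Without the block the same libraries gave 3739, 5254 and 415, with 83.1% of the efficiency calls higher. The labels do not say whether the replicate numbers pair libraries. Without a count filter the efficiency median over 800 was -0.142. The uncorrected slope was 0.617. Stretches of 500 lines gave r = 0.749, and a minimum of 2 CPM left 14 and 12 features with footprints in 1 knockout. The cause was not tested, beyond the fewer features or libraries in these settings.

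Removing the raised stretch was chosen after seeing the data, as was leaving out libraries for the slope and the stretches. Equal depth by thinning gave 2898 footprint calls. The median SE of an efficiency difference was 0.26 (log2), and how much of it comes from depth and how much from replicate spread was not tested.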
